A study of Mus musculus with 10 samples.

Results

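The 2 layers of the living epidermis were compared within bitransgenic mice, a model of Hutchinson-Gilford progeria in which the skin carries progerin, a truncated form of lamin A. The gene set was made by joining the authors' basal and suprabasal tables on their locus identifier and keeping loci that the authors had marked as testable in both, which left 10583 loci. Of these, 9175 had a level of at least 5 in the higher layer and were analysed, and 1408 lay under that level. The basal group held 2 bitransgenic samples and the suprabasal group held 2, of 10 samples in all; 3 basal and 3 suprabasal samples of wild type mice gave the ratios set beside them. All groups were sorted keratinocytes from the skin of FVB/N mice at postnatal day 4, so the bitransgenic and wild type groups shared strain, age and preparation. Xist, the RNA of the inactive X chromosome in females, had 108 FPKM in basal and 103 FPKM in suprabasal bitransgenic cells, and 0.258 and 0.236 FPKM in wild type cells. The sex make-up of the groups and the genotype cannot be told apart in any comparison of the genotypes below. Across layers, 1 of the bitransgenic title stems recurred, as did 3 of the wild type. The labels name neither the transgenes nor the sort marker. In the published line of this model a human lamin A minigene is driven by tetracycline-regulated transcription from the keratin 5 promoter, which is active in basal keratinocytes.

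Basal keratinocytes sit on the basement membrane, divide, and feed the layers above them. When a cell leaves the membrane it stops dividing, switches from basal to suprabasal keratins, and later makes the proteins and lipids of the cornified envelope, the cross-linked shell that seals the skin. Wnt ligands are made by basal cells of the interfollicular epidermis and act on the same cells through frizzled receptors, beta-catenin and the TCF/LEF factors. Lamins and the proteins bound to them hold the nuclear envelope together and are the site at which progerin accumulates.

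Each level below is the authors' pooled value of a group, read as FPKM, that is, fragment counts scaled by transcript length and by library size. No value per sample was analysed here, so no level or layer ratio carries an error or a test, and the depth is unknown. The layer ratio is log2 of (suprabasal level + 1) over (basal level + 1), minus the median over the 9175 loci, so that 0 is the typical locus, positive values are higher in suprabasal cells and a value of 1 is called 2-fold. Folds quoted without log2 are plain ratios of the levels. Differences between the genotypes, given with a ± and an SE, are differences of log2 ratios of the plain levels, with neither the added 1 nor the centring, so they do not equal the difference of the printed layer ratios. Each layer's table was normalized on its own, and how the authors scaled them is not given in the sources used here. Fewer cells of a type and less RNA per cell cannot be told apart.

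Of the 9175 loci, 908 (9.90%) were at least 2-fold higher in suprabasal cells and 606 (6.60%) at least 2-fold higher in basal cells. At 4-fold the counts were 216 and 73. The quartiles of the layer ratio lay at -0.43 and 0.45. Of the 908 loci, 420 reached 5 FPKM in suprabasal cells only, and of the 606 loci, 226 reached it in basal cells only, so for these the minimum itself selected a difference. Of all loci past 2-fold, 60.0% were higher in suprabasal cells. That share was 77.2% when the ratios were centred on the ribosomal protein genes, whose centre lay at -0.26 against -0.04 for all loci. At the edge of the minimum, Spg11 (4.88 in basal and 5.001 in suprabasal cells) and Rfesd (5.001 and 2.02) were just inside. Rab23 (4.998 and 3.39) and Zfp956 (1.02 and 4.996) were just outside.

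**Figure D1:**
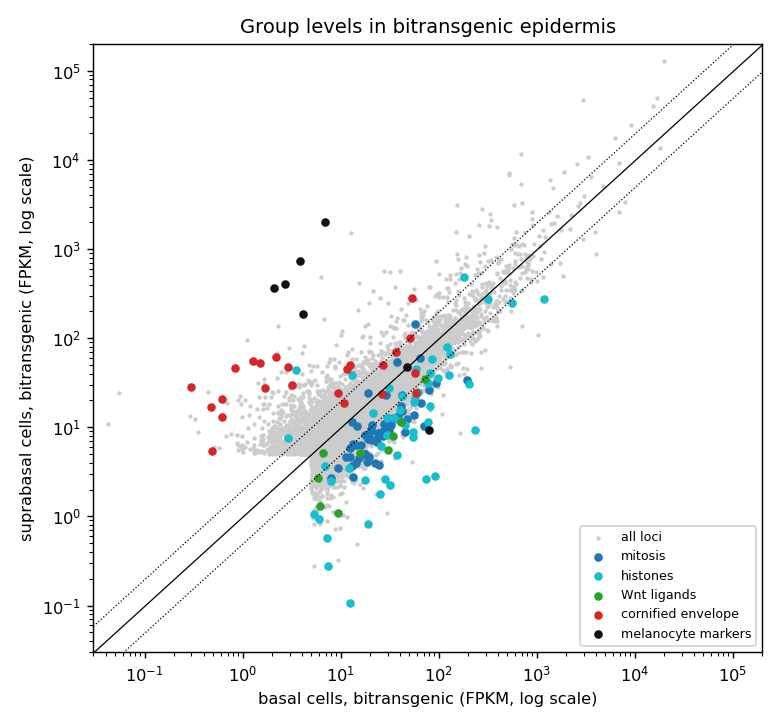
Level of each of the 9175 loci in bitransgenic basal cells (horizontal, FPKM, log scale) and suprabasal cells (vertical, FPKM, log scale), 1 point per locus, with 5 gene lists in colour; the solid line is the median ratio of the levels and the dotted lines are 2-fold above and below it. Melanocyte markers such as Dct (6.95 and 2012 FPKM) lie far above the lines, cornified envelope genes above them, and mitosis, histone and Wnt ligand genes mostly below.

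The sorted fractions differed in the direction of their labels for adhesion genes and for late differentiation genes. Integrin alpha 6 (Itga6), which anchors basal cells to the basement membrane, had 220 FPKM in basal and 85.1 FPKM in suprabasal cells (log2 -1.32). Of 23 analysed basal keratinocyte genes, 7 were at least 2-fold higher in basal cells, none was 2-fold higher in suprabasal cells, and the median was -0.52. Collagen XVII (Col17a1), a hemidesmosome protein, had 237 FPKM in basal and 95.2 FPKM in suprabasal cells. Keratin 15 (Krt15), a basal keratin, had 308 and 124 FPKM. The locus that merges Krt5 with Krt2, Krt6b, Krt72, Krt76 and Krt8 was 2.67-fold higher in basal cells, at 6923 against 2591 FPKM, and cannot be assigned to 1 keratin. Of 16 basement membrane genes, 6 were at least 2-fold higher in basal cells and none in suprabasal cells, with a median of -0.54. Among them Fras1, an extracellular matrix protein of the skin basement membrane, had 5.77 and 1.19 FPKM. Of the 16, 3 reached 5 FPKM in 1 layer only, Fras1 among them. The transcription factor p63 (Trp63) differed little, at 197 and 159 FPKM.

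The suprabasal keratins separated the fractions less than the adhesion genes did. Keratin 10 (Krt10), the type I keratin of suprabasal cells, had 1601 FPKM in basal and 2354 FPKM in suprabasal cells, a fold of 1.47 (log2 0.59). Its partner keratin 1 (Krt1) stood at 1750 and 1622 FPKM (log2 -0.07). The Krt1 locus has the coordinates of the merged Krt5 locus and holds 4 short RNA genes. By these levels both keratins were abundant in the basal fraction, for Krt1 with that limit of its locus. Loricrin (Lor), the main protein of the cornified envelope, had 3.18 FPKM in basal and 29.6 FPKM in suprabasal cells (log2 2.90). Filaggrin (Flg), which bundles keratin filaments in the outer layers, had 52.97 and 281 FPKM (log2 2.42).

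The cornified envelope genes had the steepest layer ratio of any keratinocyte list examined. Of 23 analysed members, 17 were at least 2-fold higher in suprabasal cells, against 9.90% of all loci, and 1 was 2-fold higher in basal cells. The median ratio was 2.42, against 0 over all loci by construction. All 23 joined members passed the minimum, but 12 reached it in 1 layer only. Another 10 members were testable in the suprabasal table only, among them Lce1l at 23.0, Lce1a2 at 21.02 and Lce1k at 18.5 FPKM. The transglutaminase gene Tgm5 was testable in each table, but at separate loci.

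Late cornified envelope 1 genes (Lce1), small proteins cross-linked into the envelope late in differentiation, had the highest ratios of the list except for Lce1m. Lce1m (log2 3.14) lay below Crct1 (log2 3.67), Kprp (log2 3.62) and Cdsn (log2 3.43). Summed over the 7 analysed Lce1 loci, all on chromosome 3, the level was 7.33 FPKM in basal and 279 FPKM in suprabasal cells. All 7 were at least 2-fold higher in suprabasal cells and reached 5 FPKM there only. Lce1b had 0.840 FPKM in basal and 46.8 FPKM in suprabasal cells (log2 4.74). Lce1a1 had 1.26 and 55.4 FPKM (log2 4.68). Lce1g had 0.295 and 28.5 FPKM (log2 4.55). These genes are close relatives, so the authors' counting could have split reads among them, and the single values are uncertain. In wild type mice the same 7 loci summed to 49.7 FPKM in basal and 81.8 FPKM in suprabasal cells.

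Beyond the Lce1 genes, Crct1, a neighbour of theirs in the epidermal differentiation complex, had 2.86 FPKM in basal and 47.1 FPKM in suprabasal cells. Keratinocyte proline-rich protein (Kprp) had 0.478 and 16.8 FPKM, and corneodesmosin (Cdsn), which glues cornified cells together, had 1.70 and 27.4 FPKM. Involucrin (Ivl), an early scaffold of the envelope, had a shallower ratio of 1.32, from 9.29 to 24.0 FPKM. The plakins of the inner envelope scaffold were within 2-fold. Envoplakin (Evpl) had 26.5 FPKM in basal and 23.9 FPKM in suprabasal cells, and periplakin (Ppl), whose locus holds a short RNA gene, had 57.1 and 40.5 FPKM. Transglutaminase 3 (Tgm3), an envelope cross-linking enzyme, ran the other way at 58.0 against 24.3 FPKM (log2 -1.18). The Tgm3 locus also holds a short RNA gene.

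Promoters of some of the envelope genes that were at least 2-fold higher in suprabasal cells are shown. Each is the 150 bases before the RefSeq transcript start on GRCm38.p6, read on the gene's strand. Capitals mark TGANTCA, where N is any base, and TATAAA, the box that positions transcription starts, each searched on both strands. TGAGTCA and TGACTCA are the core of sites bound by AP-1 factors, and the match in Flg, TGAATCA, is neither. The stretches are chr3:92083143-92083292 (minus strand) for Lor, chr3:93273396-93273545 (plus) for Flg and chr3:92573736-92573885 (minus) for Ivl. Those of the Lce1 genes are chr3:92679097-92679246 (plus) for Lce1c, chr3:92687211-92687360 (minus) for Lce1d and chr3:92752339-92752488 (minus) for Lce1g.

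Lor: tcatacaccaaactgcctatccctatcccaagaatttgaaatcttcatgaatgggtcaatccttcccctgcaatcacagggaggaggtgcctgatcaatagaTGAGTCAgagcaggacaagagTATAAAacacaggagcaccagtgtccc

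Flg: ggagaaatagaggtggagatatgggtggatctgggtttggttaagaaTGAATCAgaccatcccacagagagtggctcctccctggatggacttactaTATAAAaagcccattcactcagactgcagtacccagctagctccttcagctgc

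Ivl: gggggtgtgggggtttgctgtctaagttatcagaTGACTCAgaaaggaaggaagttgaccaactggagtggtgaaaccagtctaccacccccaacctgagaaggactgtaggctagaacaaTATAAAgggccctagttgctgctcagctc

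Lce1c: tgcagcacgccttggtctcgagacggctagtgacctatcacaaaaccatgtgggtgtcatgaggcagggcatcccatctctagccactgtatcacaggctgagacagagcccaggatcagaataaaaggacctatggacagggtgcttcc

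Lce1d: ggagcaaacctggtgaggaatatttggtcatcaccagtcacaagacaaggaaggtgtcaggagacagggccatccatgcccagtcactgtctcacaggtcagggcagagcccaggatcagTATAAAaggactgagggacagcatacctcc

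Lce1g: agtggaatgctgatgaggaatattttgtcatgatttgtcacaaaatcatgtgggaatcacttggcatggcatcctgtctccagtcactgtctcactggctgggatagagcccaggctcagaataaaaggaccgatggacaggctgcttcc

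Lor, Flg and Ivl each held 1 TGANTCA match and 1 TATAAA match, the latter starting 27, 53 and 29 bases before the transcript start. In these windows the Lce1 promoters held no TGANTCA match, and Lce1d held a TATAAA match starting 30 bases before the start. The windows of Cdsn (log2 3.43), Lce1a1 and Lce1b, searched but not printed, held neither match, and that of Lce1m held TATAAA only. Without gaps, the stretches of Lce1c and Lce1g were identical at 106 of 150 bases (70.7%), those of Lce1d and Lce1g at 105 (70.0%) and those of Lce1c and Lce1d at 95 (63.3%). The other pairs of the 6 Lce1 promoters matched, which take in Lce1a1, Lce1b and Lce1m, ran from 20.7% to 44.7%. Over the full promoter windows of 250 bases before to 50 after the start, TGANTCA was found in 5 of 19 envelope promoters (26.3%) and in 7.81% of all 32851 RefSeq promoters. TATAAA was found in 6 of 19 (31.6%) and in 13.6% of all. Promoters were matched for 17 of the 23 envelope genes. A match describes letters in a window and is not a measured site.

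Genes of the spinous layer did not share the ratio of the late envelope genes. Of 22 analysed early differentiation genes, 3 were at least 2-fold higher in suprabasal cells, and the median was 0.01. The 1 member 2-fold higher in basal cells was the merged locus of Krt2 and Krt5, which cannot be assigned to 1 keratin. Calmodulin-like 3 (Calml3) had 4.71 FPKM in basal and 31.9 FPKM in suprabasal cells. Suprabasin (Sbsn) had 317 and 737 FPKM, and desmocollin 1 (Dsc1), a desmosomal cadherin of differentiated cells, had 38.1 and 78.4 FPKM. Those 3 were the members past 2-fold in suprabasal cells. Keratinocyte differentiation-associated protein (Krtdap) had 6915 FPKM in basal and 9141 FPKM in suprabasal cells. Desmoplakin (Dsp), which ties desmosomes to keratins, had 701 and 540 FPKM, and desmoglein 1b (Dsg1b) had 36.8 and 24.0 FPKM.

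In wild type mice the median of the same list was 0.84, and 10 of 23 analysed members were at least 2-fold higher in suprabasal cells, against 6.96% of all 9518 wild type loci. The bitransgenic ratio lay below the wild type ratio for 20 of the 22 members analysed in both, beside 52.0% of all 8899 loci analysed in both. Members share the same pooled libraries, so this count has no test. Krt10 had a wild type ratio of 1.55, from 2319 to 6574 FPKM, and Krt1 one of 1.03. Dsg1b went from 21.4 FPKM in basal to 35.4 FPKM in suprabasal wild type cells. The test of the difference, described with the genotypes, called none of the 22. An unadjusted p under 0.05 (Wald test) was found for 4, beside 3.08% of all 10583 loci.

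Of 22 analysed barrier lipid genes, 7 were 2-fold higher in suprabasal cells, against 9.90% of all loci. None was 2-fold higher in basal cells, and the median was 0.76. Of the 22, 4 reached 5 FPKM in 1 layer only, Cers4 and Alox12e among them. Ceramide synthase 4 (Cers4) had 3.24 FPKM in basal and 20.02 FPKM in suprabasal cells. Alox12e, an epidermal lipoxygenase, had 4.81 and 20.8 FPKM. Dgat2, which makes triglycerides, had 10.3 and 30.6 FPKM, and Elovl1, an elongase of very long fatty acids, 53.2 and 116 FPKM. Ceramide synthase 3 (Cers3), which makes the ultra-long ceramides of the barrier, did not follow at 26.7 and 18.4 FPKM. In wild type mice 16 of 23 members were 2-fold higher in suprabasal cells, with a median of 1.23. Among 17 genes of desquamation, the shedding of cornified cells, 4 were higher in suprabasal and 3 in basal cells. The kallikrein protease Klk7 had 19.2 and 146 FPKM, and cathepsin L (Ctsl) 34.0 and 135 FPKM. Cystatin C (Cst3), a cathepsin inhibitor, had 146 FPKM in basal and 65.1 FPKM in suprabasal cells.

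**Figure D2:**
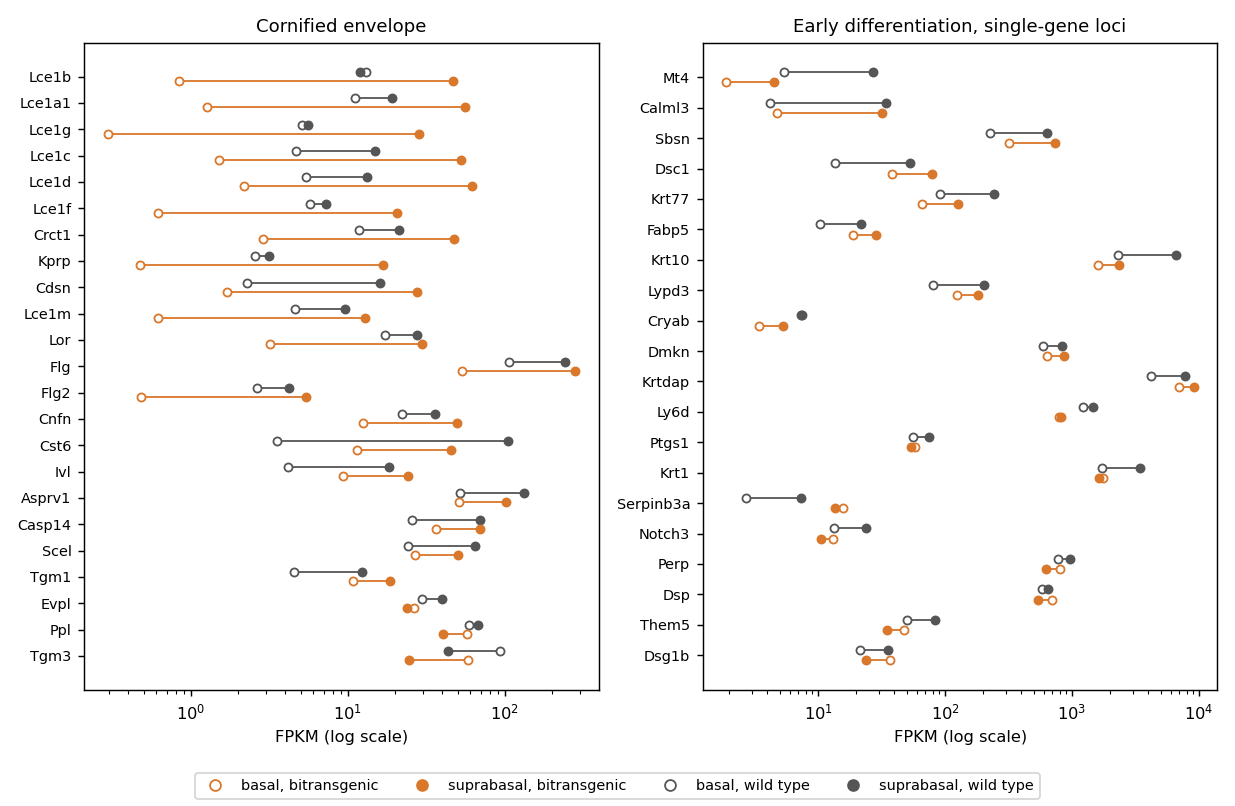
Group levels (FPKM, log scale) of cornified envelope genes (left) and early differentiation genes (right) in basal (open) and suprabasal (filled) cells of bitransgenic (orange) and wild type (grey) mice; each point is 1 pooled group level with no error, and genes are ordered by their bitransgenic layer ratio. The orange lines are long for the Lce1 genes, whose highest basal point is Lce1d at 2.19 FPKM, and short for Krt10, Krt1 and Dsp.

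Transcription factors of epidermal differentiation showed small layer ratios. Of 28 analysed, 2 were 2-fold higher in suprabasal and 2 in basal cells, with a median of -0.25. Prdm1, a repressor linked to terminal differentiation, had 1.27 FPKM in basal and 5.90 FPKM in suprabasal cells, and Id2 had 31.7 and 85.6 FPKM. Id3, an inhibitor of basic helix-loop-helix factors, had 57.9 FPKM in basal and 24.3 FPKM in suprabasal cells. Klf4, needed for barrier formation, was close to level at 84.7 and 100 FPKM. Of 20 Notch pathway genes 1 was 2-fold higher in each direction and the median was 0.01. The Notch ligand Jag2, whose locus holds a short RNA gene, had 48.7 FPKM in basal and 20.3 FPKM in suprabasal cells. Presenilin 2 (Psen2), part of the protease that releases active Notch, had 1.19 and 17.2 FPKM.

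Cell division genes were the largest block higher in basal cells. Of 57 analysed mitosis loci, 43 were at least 2-fold higher in basal cells, against 6.60% of all loci, 1 was higher in suprabasal cells, and the median was -1.37. Of the 57, 12 reached 5 FPKM in 1 layer only. Condensin subunit Smc2, which compacts chromosomes, had 69.9 FPKM in basal and 10.3 FPKM in suprabasal cells (log2 -2.61). Topoisomerase II alpha (Top2a), which untangles sister chromatids, had 196 and 33.9 FPKM (log2 -2.46), at a locus that also holds a short RNA gene. Hmmr, a spindle protein, had 22.3 and 3.96 FPKM, and the cytokinesis motor Kif23 had 44.8 and 8.85 FPKM.

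Some mitotic genes departed from the block. The master kinase Cdk1 had nearly equal levels of 64.7 FPKM in basal and 59.6 FPKM in suprabasal cells (log2 -0.08), where the wild type ratio was -1.24. Its partner cyclin A2 (Ccna2) had 55.7 and 13.9 FPKM. Cdc25c, the phosphatase that activates Cdk1, appears as 3 loci at the same coordinates, at 24.6 and 3.77 FPKM, at 7.88 and 2.68 FPKM and at 57.1 and 144 FPKM. The strand of these loci is not given, and the values cannot be assigned. In wild type mice 41 of 58 mitosis loci were 2-fold higher in basal cells, against 5.01% of all, with a median of -1.30.

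Replication genes had a smaller ratio than mitosis genes. Of 54 analysed S phase genes, 11 were 2-fold higher in basal cells, against 6.60% of all loci. None was 2-fold higher in suprabasal cells, and the median was -0.55. Of the 54, 6 reached 5 FPKM in 1 layer only. Rpa3, a subunit of the complex that coats single-stranded DNA, had 50.8 FPKM in basal and 12.3 FPKM in suprabasal cells. Dbf4, an activator of replication origins, had 25.6 and 6.11 FPKM, and ribonucleotide reductase Rrm2 had 47.5 and 14.3 FPKM. Stem-loop binding protein (Slbp), which processes histone messages, had 41.5 and 12.4 FPKM. Mcm10 had 4.57 FPKM in basal and 8.82 FPKM in suprabasal cells. The wild type median was -0.74.

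Replication-dependent histone genes, a list added after their values were seen, had the lowest median of the lists with more than 9 members. Of 50 analysed loci, 36 were at least 2-fold higher in basal cells and 4 in suprabasal cells, with a median of -1.55. Hist1h3g had 90.6 FPKM in basal and 2.82 FPKM in suprabasal cells, a 32.1-fold difference. Hist1h2ak, whose locus holds a short RNA gene, had 235 and 9.26 FPKM. The ratio was not uniform: Hist1h2bn at 1 locus had 182 FPKM in basal and 490 FPKM in suprabasal cells, and Hist2h2bb had 316 and 276 FPKM. Of the 50 loci, 18 reached 5 FPKM in 1 layer only. In wild type mice 16 of 53 loci were 2-fold higher in basal cells and the median was -0.53. The bitransgenic ratio was below the wild type one at 36 of the 50 loci analysed in both, beside 52.0% of all 8899 such loci. No difference was called, and 10 loci had an unadjusted p under 0.05 (Wald test), beside 3.08% of all 10583 loci. Histone copies are nearly identical and several overlap, so values of single copies are uncertain.

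Promoters of 3 mitosis genes and 1 histone gene are printed because promoters of these lists shared letters. Capitals mark CCAAT in all 4 and TTTGAA in the mitosis genes, on either strand, so that the reverse complements ATTGG and TTCAAA are in capitals too. The letters TTTGAA are the core of the cell cycle homology region of late cell cycle genes, and CCAAT boxes are bound by NF-Y. The stretches, 150 bases before the RefSeq start on GRCm38.p6, are chr11:99024190-99024339 (minus strand) for Top2a, chr4:52439071-52439220 (plus) for Smc2, chr11:40733438-40733587 (minus) for Hmmr and chr13:21753913-21754062 (minus) for Hist1h2ak.

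Top2a: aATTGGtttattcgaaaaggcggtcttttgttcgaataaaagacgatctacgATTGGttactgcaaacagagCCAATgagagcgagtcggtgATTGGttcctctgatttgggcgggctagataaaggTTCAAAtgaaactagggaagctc

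Smc2: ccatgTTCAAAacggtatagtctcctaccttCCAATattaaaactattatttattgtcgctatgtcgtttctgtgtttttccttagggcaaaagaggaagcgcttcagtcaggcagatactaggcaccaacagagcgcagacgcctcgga

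Hmmr: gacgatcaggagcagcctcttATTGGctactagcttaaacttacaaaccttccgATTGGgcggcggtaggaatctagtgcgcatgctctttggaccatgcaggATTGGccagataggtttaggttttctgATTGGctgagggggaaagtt

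Hist1h2ak: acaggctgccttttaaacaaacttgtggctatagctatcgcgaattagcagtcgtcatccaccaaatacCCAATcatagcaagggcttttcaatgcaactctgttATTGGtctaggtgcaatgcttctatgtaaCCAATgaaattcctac

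Top2a and Hmmr each held 4 CCAAT matches, Hist1h2ak held 3 and Smc2 held 1. Top2a held a TTTGAA match starting 23 bases before the transcript start, Smc2 held a match starting 145 bases before it, and Hmmr did not hold the motif. The windows of Ccnb1, Cenpf and Plk1, searched but not printed, held CCAAT and lacked TTTGAA. That of Hist1h3g, also not printed, held 1 CCAAT match. Over the full promoter windows, TTTGAA was found in 37 of 50 mitosis promoters (74.0%) and in 11 of 57 S phase promoters (19.3%). It was in 19 of 43 histone promoters (44.2%) and in 17.9% of all. CCAAT was found in 39 of 50 mitosis (78.0%), 31 of 57 S phase (54.4%) and 36 of 43 histone promoters (83.7%), and in 37.4% of all. TTTCGCGC, a site type of E2F factors, was in 8 of 57 S phase promoters (14.04%), in 8 of 43 histone promoters (18.6%) and in 0.323% of all. TATAAA was in 26 of 43 histone promoters (60.5%). Promoters were matched for 47 of 57 mitosis, 47 of 56 S phase and 42 of 47 histone genes.

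Melanocyte genes gave the steepest ratios of all loci, with all 4 of the highest among them. Dct, an enzyme of melanin synthesis, had 6.95 FPKM in basal and 2012 FPKM in suprabasal cells, a 289-fold difference (log2 8.02). Pmel, the fibril protein of melanosomes, had 3.82 and 741 FPKM, Tyrp1 had 2.08 and 370 FPKM, and Gpnmb had 2.69 and 402 FPKM. Over the 7 joined melanocyte loci the summed level was 146 FPKM in basal and 3771 FPKM in suprabasal cells, and 5 were 2-fold higher in suprabasal cells. Those 5 alone, without Rab38, summed to 19.7 and 3714 FPKM. Rab38, a melanosome transport gene, was named at 2 joined loci with the same coordinates, at 47.8 and 47.3 FPKM and at 78.7 and 9.31 FPKM. Another 11 melanocyte loci were testable in the suprabasal table only, among them Mlana at 369, Slc24a5 at 189, Tyr at 145 and Mitf at 94.5 FPKM. No defining marker of the joined loci was at 0 in basal cells. The wild type sums over the 7 loci were 82.9 FPKM in basal and 2106 FPKM in suprabasal cells, so the ratio was present in both genotypes.

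The promoters of Dct and Tyrp1 are shown with CATGTG in capitals, a core letter string of sites for MITF, the melanocyte transcription factor; this motif was added after the values were seen. They are chr14:118052247-118052396 (minus strand) and chr4:80834063-80834212 (plus) on GRCm38.p6, again 150 bases before the RefSeq start.

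Dct: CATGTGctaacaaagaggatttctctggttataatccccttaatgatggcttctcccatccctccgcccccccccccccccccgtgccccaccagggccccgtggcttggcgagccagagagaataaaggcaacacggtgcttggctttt

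Tyrp1: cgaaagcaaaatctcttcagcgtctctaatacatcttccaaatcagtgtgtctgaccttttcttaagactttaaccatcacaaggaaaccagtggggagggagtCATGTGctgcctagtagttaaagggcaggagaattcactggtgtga

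In Tyrp1 the match starts 46 bases before the transcript start, and in Dct 150 bases before it. The same window of Gpnmb, searched but not printed, lacked the motif. CATGTG, read on both strands, was in 4 of 5 promoters of the 4 matched melanocyte genes, in 7 of 19 envelope promoters (36.8%) and in 14.2% of all RefSeq promoters.

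Markers of other cells were checked beside these. Vimentin (Vim), an intermediate filament of non-epithelial cells that melanocytes also contain, had 6.24 FPKM in basal and 492 FPKM in suprabasal cells. Of the other 6 analysed fibroblast markers, the collagen Col6a3 was over 2-fold higher in suprabasal cells (2.43 and 8.59 FPKM), while Postn (161 and 38.2 FPKM) and Thy1 (51.9 and 23.4 FPKM) were over 2-fold higher in basal cells. Sparc had 135 and 118 FPKM, Dcn 5.31 and 8.31, and Fn1 4.57 and 6.88 FPKM. Col5a1, Col5a2 and Col6a1 lay under 5 FPKM with the higher level in suprabasal cells. Col1a1, Col1a2, Col3a1 and Col6a2 were testable in the suprabasal table only, at 4.20, 10.4, 6.13 and 3.50 FPKM. Of 7 analysed Schwann cell loci, 3 were 2-fold higher in suprabasal cells, among them the myelin gene Pmp22 (1.04 and 20.4 FPKM). Of the leukocyte list, Cd74 (5.02 and 6.66 FPKM) and Epcam (54.0 and 46.2 FPKM), which keratinocytes can also express, were joined. No muscle or erythroid gene was testable in both tables. Of 13 sebaceous gland genes, 10 were 2-fold higher in suprabasal cells, with a median of 1.34, and 3 reached 5 FPKM in 1 layer only. Scd1, a lipid desaturase, had 65.4 and 172 FPKM. Krt79, a keratin of the gland duct and upper hair follicle, had 203 and 1409 FPKM, at a locus with the coordinates of the merged Krt5 locus. The part of these cells in the ratios of other genes was not tested.

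**Figure D3:**
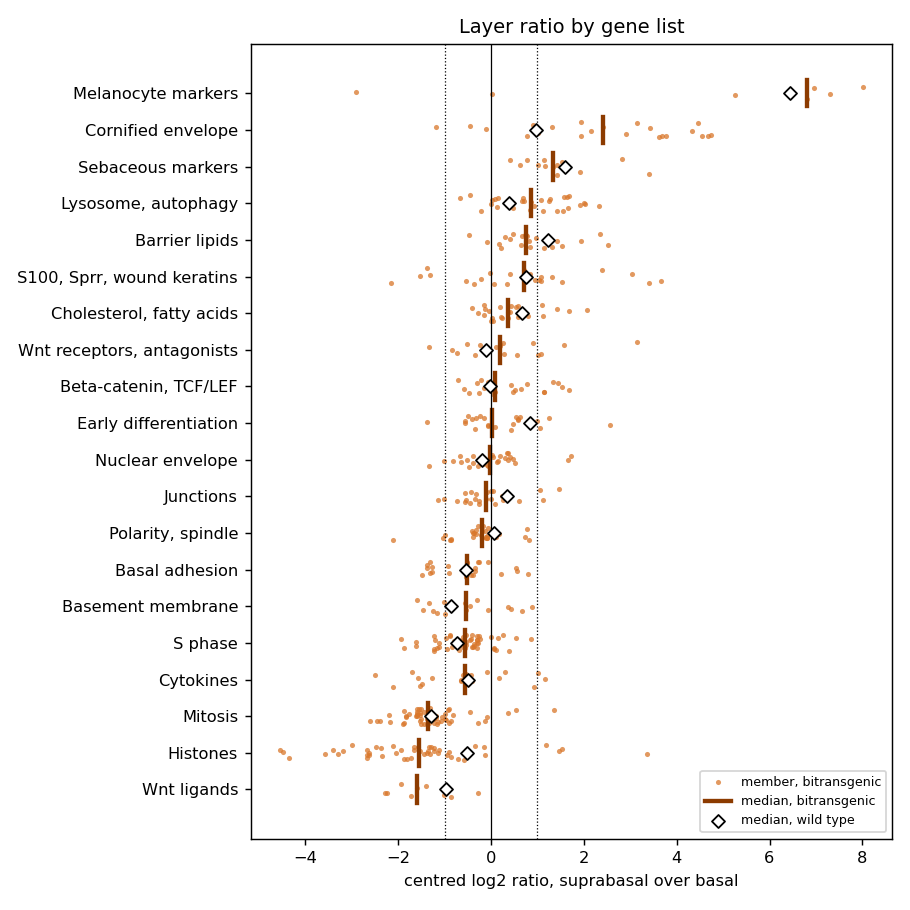
Layer ratio (log2, suprabasal over basal, centred) of the members of each gene list in bitransgenic cells (points), with the bitransgenic median (bar) and the wild type median (diamond); dotted lines mark 2-fold in each direction. Medians run from 6.81 for melanocyte markers and 2.42 for the cornified envelope to -1.55 for histones and -1.59 for Wnt ligands.

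Wnt ligands and the genes that export them were higher in basal cells. Of 9 analysed members of that list, 7 were at least 2-fold higher in basal cells, against 6.60% of all loci. All 9 had a ratio below 0, with a median of -1.59, but 3 of them reached 5 FPKM in basal cells only. Wnt10b had 9.40 FPKM in basal and 1.08 FPKM in suprabasal cells (log2 -2.29). Wnt10a, the ligand mutated in ectodermal dysplasias, had 30.6 and 5.53 FPKM, and Wnt3 had 33.9 and 7.95 FPKM. Wnt4 had 41.1 and 11.4 FPKM, Wnt7b had 15.7 and 5.18 FPKM, and Wnt16 had 6.18 and 1.32 FPKM. Wls, the carrier that brings Wnt proteins to the surface, had 72.7 and 34.7 FPKM at a locus with a short RNA gene. Wnt3a lay under 5 FPKM in both layers. In wild type mice 5 of 10 members were 2-fold higher in basal cells, with a median of -0.97. Wnt10b had there 19.4 FPKM in basal and 10.1 FPKM in suprabasal cells. On plain levels the genotypes differed in the Wnt10b log2 ratio by -2.18 ± 1.04 (SE), with an unadjusted p of 0.0366, which was not called.

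Receptors and antagonists of the pathway were mixed. Of 19 analysed, 4 were 2-fold higher in suprabasal cells, against 9.90% of all loci, and 1 in basal cells, with a median of 0.20. Of the 19, 4 reached 5 FPKM in 1 layer only, Dkk3 among them. The secreted factor Dkk3 had 2.01 FPKM in basal and 24.9 FPKM in suprabasal cells (log2 3.14), and the receptor Fzd7 had 6.82 and 21.8 FPKM. The receptor Fzd10 had 25.1 FPKM in basal and 13.3 FPKM in suprabasal cells. Lrp4, a co-receptor relative, had 20.95 and 7.50 FPKM and was the member past 2-fold in basal cells.

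Most genes of the nuclear arm were within 2-fold, unlike the ligands. Of 23 analysed genes for beta-catenin, its destruction complex and TCF/LEF factors, 6 were 2-fold higher in suprabasal cells, against 9.90% of all loci. None was 2-fold higher in basal cells, and the median was 0.09. All 4 TCF/LEF genes were among the 6. Of the 23, 3 reached 5 FPKM in 1 layer only, Tcf7 and Lef1 among them. Tcf7l1 had 5.79 FPKM in basal and 20.2 FPKM in suprabasal cells. Tcf7, whose locus holds 3 short RNA genes, had 4.51 and 13.6 FPKM, and Tcf7l2 had 18.1 and 40.0 FPKM. Lef1 had 3.02 and 8.86 FPKM (log2 1.33), where the wild type levels were 12.6 and 9.48 FPKM (log2 -0.33). On plain levels the difference in the Lef1 log2 ratio was 1.97 ± 0.65 (SE), with an unadjusted p of 0.00245 and an adjusted p of 0.703 (Wald test, Benjamini-Hochberg), so it was not called. Beta-catenin itself (Ctnnb1) had 150 and 205 FPKM. The target genes Axin2 (13.7 and 21.6 FPKM), Ccnd1 (44.2 and 41.3 FPKM) and Myc (104 and 105 FPKM) were all within 2-fold.

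**Figure D4:**
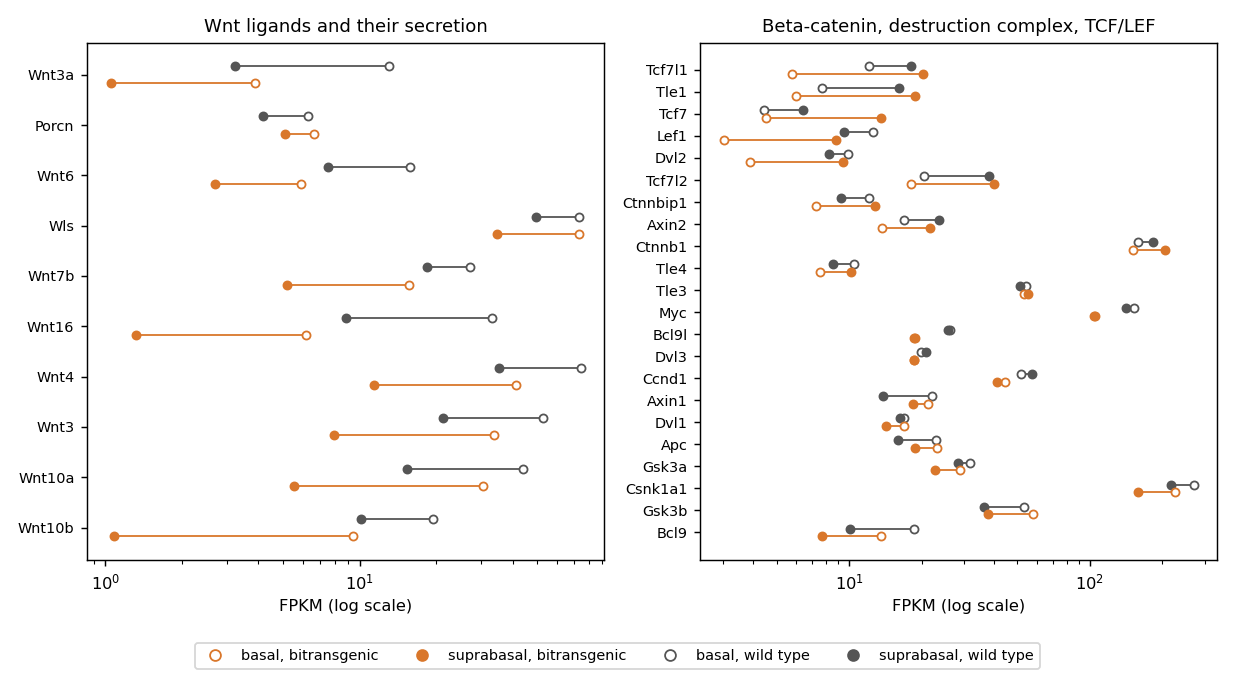
Group levels (FPKM, log scale) of Wnt ligand and secretion genes (left) and of the beta-catenin, destruction complex and TCF/LEF genes (right) in basal (open) and suprabasal (filled) cells of bitransgenic (orange) and wild type (grey) mice; each point is 1 pooled group level with no error. On the left the filled orange point lies at a lower level than the open one for every gene, while on the right it lies higher for Tcf7l1, Tle1, Tcf7 and Lef1.

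Most nuclear envelope genes were within 2-fold between the layers. Of 28 analysed loci, 2 were 2-fold higher in each direction and the median was -0.02. Lamin B1 (Lmnb1), a lamin of dividing cells, had 54.9 FPKM in basal and 20.7 FPKM in suprabasal cells (log2 -1.33). Lamin A/C (Lmna) had 536 and 397 FPKM (log2 -0.40), and how reads of a human lamin A transgene would be counted at this mouse locus is not given in the sources used here. The nuclear pore gene Nup153 had 57.9 and 27.6 FPKM and lay at the 2-fold limit, which it missed under 5 of the alternatives tried. Emerin (Emd) had 65.3 and 89.0 FPKM. Sun1 was level at 18.5 and 18.4 FPKM, and Sun2 had 15.4 and 20.3 FPKM; both tie the envelope to the cytoskeleton.

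Among 30 polarity and spindle orientation genes, 3 were 2-fold higher in basal cells and none in suprabasal cells, with a median of -0.20. Gnai1, a G protein subunit that anchors the spindle to the cortex, had 42.4 FPKM in basal and 8.82 FPKM in suprabasal cells (log2 -2.11, wild type -1.01). Its relatives Gnai2 (80.5 and 74.4 FPKM) and Gnai3 (55.0 and 42.7 FPKM) were within 2-fold, as were the partners Gpsm2 (48.0 and 35.1 FPKM) and Numa1 (32.1 and 29.8 FPKM). Pard6b and the planar polarity cadherin Celsr1 were the others past 2-fold, at 6.56 and 2.58 FPKM and at 28.3 and 13.3 FPKM, with Celsr1 at the limit. Numb, a determinant that inhibits Notch, had 11.05 and 19.7 FPKM.

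Of 20 analysed cytokine and growth factor genes, 7 were 2-fold higher in basal and 2 in suprabasal cells, with a median of -0.57. Of the 20, 3 reached 5 FPKM in 1 layer only. The skin chemokine Ccl27a had 272 FPKM in basal and 46.0 FPKM in suprabasal cells. Ccl20, which attracts CCR6-bearing cells, had 180 and 40.0 FPKM, and Tnf had 20.7 and 6.29 FPKM. Prostaglandin synthase 2 (Ptgs2), outside the list, had 35.97 and 4.54 FPKM. Of 24 wound and stress loci, 9 were higher in suprabasal and 4 in basal cells. The beta-defensin Defb6 had 151 and 1566 FPKM, and Sprr4, a small envelope precursor, had 19.3 and 250 FPKM. S100a11, a calcium-binding protein, was the reverse at 4023 and 882 FPKM.

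Of 31 analysed lysosomal and autophagy genes, 14 were at least 2-fold higher in suprabasal cells, against 9.90% of all loci. None was 2-fold higher in basal cells, and the median was 0.86. Of the 31, 5 reached 5 FPKM in 1 layer only. Gabarapl1, which coats autophagosomes, had 8.68 FPKM in basal and 46.0 FPKM in suprabasal cells. The lysosomal protease Ctsa had 28.8 and 117 FPKM, and the autophagy receptor Sqstm1 had 42.9 and 162 FPKM. The bitransgenic ratio was above the wild type one for 27 of 31 members, beside 4270 of all 8899 loci analysed in both genotypes. The wild type median was 0.39, and no difference was called. Melanocytes are rich in lysosome-related organelles. The sum over the 5 melanocyte loci, 19.7 FPKM in basal and 3714 FPKM in suprabasal cells, moves with this list, and its part in the lysosomal ratio was not tested.

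Outside the lists, Tiam2, a Rac activator, had 2.26 FPKM in basal and 138 FPKM in suprabasal cells (log2 5.45). Syngr1 had 2.96 and 77.6 FPKM, Nudt19 4.18 and 82.2 FPKM, and Emp3 4.06 and 68.6 FPKM. Glul, glutamine synthetase, whose locus holds a short RNA gene, had 12.8 and 1499 FPKM. In the opposite direction stood Lars2, the mitochondrial leucyl-tRNA synthetase, at 536 and 48.0 FPKM, and the protease inhibitor Serpina3i at 53.2 and 4.10 FPKM. Tasp1, a protease that cleaves MLL, had 22.7 and 1.80 FPKM. Small nuclear and cytoplasmic RNAs, looked at after their values were seen, were 2-fold higher in suprabasal cells at 5 of 6 loci, against 1 of 6 in wild type mice. Rn7sk had 20023 and 128666 FPKM and Rmrp had 16886 and 49235 FPKM. Loci that contain an annotated RNA gene under 300 bases numbered 1648 and had a median of 0.04.

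The layer ratio spread wider in bitransgenic than in wild type cells. Its standard deviation across loci was 0.85 in 9175 bitransgenic and 0.73 in 9518 wild type loci, and 1514 against 1139 loci were past 2-fold. The wild type counts were 662 higher in suprabasal cells (6.96%) and 477 higher in basal cells (5.01%). Each bitransgenic group pooled 2 samples and each wild type group 3, so the number of samples and the genotype cannot be told apart in this spread. Across the 8899 loci analysed in both genotypes the ratios had a Pearson r of 0.62 and a Spearman rho of 0.58, a description across genes of the same pooled libraries. Of these loci, 380 were 2-fold higher in suprabasal cells of both genotypes, which is 45.1% of the bitransgenic and 62.2% of the wild type loci past 2-fold there. In basal cells 195 were shared, 33.2% and 47.7%. Opposite directions past 2-fold were found for 21 and 14 loci.

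**Figure D5:**
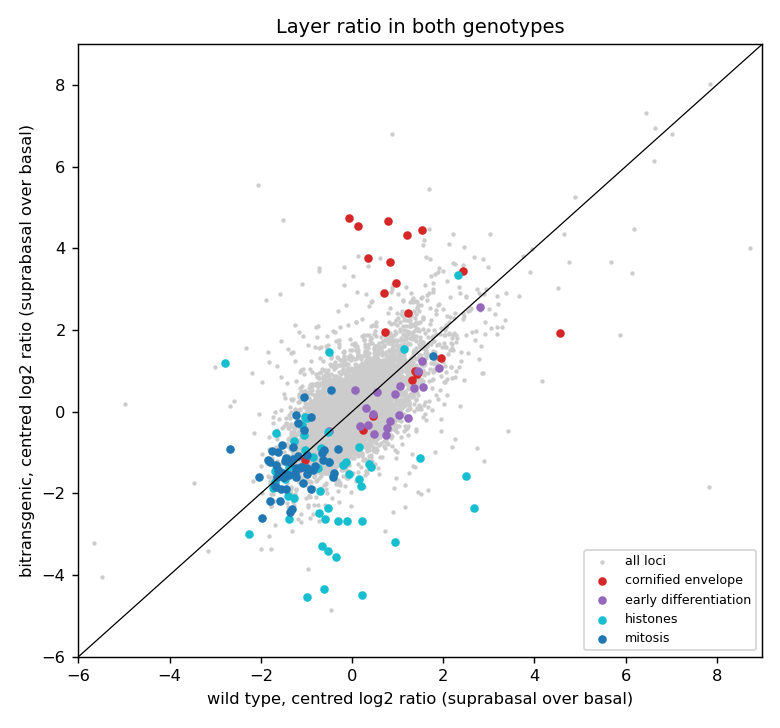
Layer ratio (log2, suprabasal over basal, centred) of the 8899 loci analysed in both genotypes, wild type on the horizontal and bitransgenic on the vertical axis, 1 point per locus, with the line of equality and 4 gene lists in colour. Of 21 cornified envelope points 12 lie above the line, such as Lce1b at -0.07 and 4.74, and 9 below it. Early differentiation and histone points lie mostly below it. Of 57 mitosis points 23 lie above the line and 34 below it.

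A difference between the genotypes in the log2 ratio of plain levels could be tested, because it equals the genotype log2 fold change in suprabasal cells minus that in basal cells. A two-sided Wald test used the standard error implied by the authors' p of each table, with Benjamini-Hochberg adjustment over 10583 loci. The test takes the tables of both layers as independent, which shared title stems may violate, and it rests on a normal approximation over groups of 2 or 3 samples. At an adjusted p under 0.05, 4 of 10583 loci (0.0378%) were called, 3 with the bitransgenic ratio higher and 1 with it lower. At an unadjusted p under 0.05 there were 326 loci (3.08%).

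Cst6, at chr19:5344705-5349574, encodes cystatin E/M, an inhibitor of legumain and cathepsins that acts in cornification. Its level was 11.5 FPKM in basal and 45.5 FPKM in suprabasal bitransgenic cells, and 3.55 and 104 FPKM in wild type cells. On plain levels the ratio was lower in bitransgenic mice, by a log2 difference of -2.89 ± 0.59 (SE; adjusted p of 0.00477, Wald test). Celf2, an RNA-binding splicing regulator at chr2:6539694-7509563, went from 1.43 to 31.3 FPKM in bitransgenic and from 9.16 to 14.1 FPKM in wild type cells (difference 3.84 ± 0.89, adjusted p of 0.0417, Wald test). Its locus holds a short RNA gene. Rusc2, at chr4:43381979-43429134, had 0.0426 and 10.9 FPKM in bitransgenic and 3.93 and 5.07 FPKM in wild type cells (difference 7.64 ± 1.73, adjusted p of 0.0355, Wald test). The fourth was a merged locus, 9430008C03Rik with Gm23925 and Gm26003, which holds 3 short RNA genes. Its levels were 15.5 and 417 FPKM in bitransgenic and 60.1 and 19.8 FPKM in wild type cells (difference 6.35 ± 1.21, adjusted p of 0.00167, Wald test). With merged loci left out, 1 locus (Cst6) was called. With the standard error taken from the authors' test statistic, 5 loci were called, but Cst6, Celf2 and Rusc2 each had an adjusted p of 1, and the merged locus was the only 1 of the 4 still called.

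Among the envelope genes, Cst6 was the only 1 called. Lor had a wild type ratio of 0.70, from 17.2 to 27.6 FPKM, and its difference was 2.53 ± 0.78 (SE; adjusted p of 0.487, Wald test). The difference for Kprp was 4.85 ± 1.27 (SE; adjusted p of 0.195, Wald test). Of the 23 envelope genes, 7 had an unadjusted p under 0.05 (Wald test), beside 3.08% of all 10583 loci. For Dct, whose ratio was 7.86 in wild type mice, and for Itga6, at -1.14, the unadjusted p was 0.96 and 0.76.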

How the data were processed

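RNA of sorted basal and suprabasal keratinocytes was sequenced from strand-specific libraries made with an amplifying kit from nanogram amounts, per the labels' protocols. TopHat, Cufflinks and the mm10 build are named, without versions, in the submitters' processing notes. The authors deposited 1 table per layer in the form of a Cuffdiff output, with 1 level per genotype and locus. The authors' deposited levels are read as FPKM, fragments scaled by transcript length and library size by the authors' tools, since the header names no unit. The deposited log2 fold changes equal the ratio of the levels to within 4.13e-05, and the authors' test statistic (a score), p-value and q-value stand beside them as deposited, with a smallest p of 5e-05. The layers' tables were normalized separately, and the scaling and the depth per sample are not given in the sources used here.

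The basal table held 11316 loci (11290 testable) and 11490 loci (11464 testable) stood in the suprabasal table; the other 26 of each were left out, as were 707 and 881 loci testable in only 1 table. A pseudocount of 1 FPKM, a minimum of 5 FPKM in the higher layer and centring on the median (log2 -0.04) were applied. Of the joined loci 353 merge several or no symbols, 1882 hold an annotated RNA gene under 300 bases (GENCODE M21), and 256 share symbol and coordinates with another locus, whose strand is not given. The standard error of each deposited fold change was its size divided by the normal quantile that the authors' p implies; it is an upper bound at the smallest p. The labels do not say whether samples came from separate animals.

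The 36 lists, the members and the rules were chosen with earlier results of these data known; the histone and small RNA lists and the CATGTG motif were added after their values were seen. Named were the 15 highest and 15 lowest ratios among loci with 1 gene symbol, at least 0.1 FPKM in the lower layer, no short RNA gene and no predicted or RIKEN symbol, the 3 highest and 3 lowest of each list, the markers, and called loci; others were chosen after their values were seen. A few results are not reported here. Promoters are from RefSeq (GRCm38.p6), motifs were searched on both strands, and overlapping matches were each counted. Python 3.11.15, pandas 2.3.3, numpy 2.4.6 and scipy 1.17.1 were used, and the calculations were tested on simulated data. Alternatives covered the pseudocount, minimum, centring, join, fold, merged and short RNA loci, and standard error.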

Additional observations from a re-analysis of the deposited data

Results flagged for a closer look

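The layer ratio differed between the genotypes at 4 loci by the Wald test of the difference itself. The bitransgenic minus wild type difference, on plain levels, was -2.89 for Cst6, 3.84 for Celf2, 7.64 for Rusc2 and 6.35 for the merged locus 9430008C03Rik, Gm23925 and Gm26003. Cst6 kept its call with merged loci left out (adjusted p of 0.00922, Wald test). Celf2 and Rusc2 then lay just above the threshold, at adjusted p of 0.0538 and 0.0514 (Wald test). With the standard error taken from the authors' test statistic 5 loci were called, of which only the merged locus was among the 4.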

How the results depend on the processing

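No paired analysis was possible because the tables hold 1 pooled level per group, and no single replicate could be left out. The main counts were 908 loci 2-fold higher in suprabasal and 606 in basal cells. A pseudocount of 5 gave 514 and 323, a minimum of 20 FPKM gave 489 and 283, and the 4-fold limit gave 216 and 73. Centring on the ribosomal protein genes gave 382 in basal cells, against 1297 in suprabasal cells. With merged loci left out 1 locus was called in the test of the genotypes, against 4. In all, 34 of the recomputed counts stayed within 1.5 times and 8 did not. Over the distinct loci of the 36 lists, histones and small RNAs left out, 113 members were 2-fold higher in suprabasal and 129 in basal cells, both within 1.5 times under each alternative. Of the list medians, 290 recomputed values kept their direction and side of 2-fold, 8 crossed it outwards and 2 inwards (Wnt ligands at -0.996 and sebaceous genes at 0.93, pseudocount of 5). Of the named loci, 1709 values kept theirs, 10 crossed outwards and 56 inwards, and no called direction reversed. The missing spread between samples and the unknown depth limit every layer ratio.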

Other observations

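Oxidative phosphorylation genes were level between the layers: of 72 analysed loci 2 were 2-fold higher in suprabasal and 4 in basal cells, with a median of -0.06. Cox7b, a subunit of cytochrome oxidase, had 234 FPKM in basal and 512 FPKM in suprabasal cells, and Ndufb4, of complex I, had 43.2 and 7.74 FPKM. Cholesterol and fatty acid synthesis genes leaned to suprabasal cells, with 5 of 27 past 2-fold there, none in basal cells, and a median of 0.36; Scd2, a desaturase, had 16.002 and 69.1 FPKM. Ribosomal protein loci went past 2-fold in each direction. In suprabasal cells 11 of 78 were 2-fold higher, against 9.90% of all loci, and in basal cells 15 were, against 6.60%. Of the 78, 6 reached 5 FPKM in basal or suprabasal cells but not in both. Rpl5, whose locus holds 3 short RNA genes, had 519 FPKM in basal and 7127 FPKM in suprabasal cells, against a wild type ratio of 0.13; on plain levels the genotypes differed by 3.69 ± 3.17 (SE), with an unadjusted p of 0.243.

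Immediate early and heat shock genes had a median of -0.26 over 29 loci, 5 of them 2-fold higher in basal cells. The chaperone Hspa8 had 1026 FPKM in basal and 108 FPKM in suprabasal cells (log2 -3.21), and its wild type ratio was -5.67. Among p53 and senescence genes, Aen, a p53-induced nuclease, had 0.323 and 12.5 FPKM, Pmaip1, which encodes the death factor Noxa, had 37.1 and 12.0 FPKM, and Cdkn1a, which encodes p21, was level at 138 and 135 FPKM.

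Transcripts of the X-inactivation gene Xist (108 FPKM in basal and 103 FPKM in suprabasal cells) and of the Y-linked gene Ddx3y (20.7 and 14.1 FPKM) were both present in both bitransgenic groups; in wild type cells Xist had 0.258 and 0.236 FPKM and Ddx3y 32.1 and 31.2 FPKM. Igf2, an imprinted growth factor, had 5.03 FPKM in basal and 2.64 FPKM in suprabasal bitransgenic cells, and 329 and 135 FPKM in wild type cells.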
